A study of Mus musculus with 16 samples.

Results

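Cardiomyocytes of DM-HFD mice, which were older, diabetic and kept on a high fat diet, were compared with those of control mice, with both exposed to linagliptin. The members are 8 of the 16 libraries of the series, chosen by their labels: 3 DM-HFD libraries and 5 control libraries with linagliptin. All libraries were from adult, primary cultured cardiomyocytes of C57BL/6 mice. Control mice were about 8 weeks old. The other mice ate the high fat diet for 26 weeks and were injected with streptozotocin, which destroys insulin-producing beta cells, after 12 weeks of the diet. The cells of both groups were incubated with 9 nmol/L linagliptin for 24 h. Whether the linagliptin medium also held the DMSO solvent (0.1% in the vehicle libraries) is not given in the sources used here. Diet, streptozotocin and age differ together between the groups, and no label names the sex, the animal or the day of isolation behind a library. The parts of diet, diabetes, age and preparation in a difference therefore cannot be told apart. Where libraries of a group do not come from separate animals, the p-values below measure the spread between libraries only.

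Linagliptin inhibits dipeptidyl peptidase-4 (DPP-4), a cell surface enzyme that cleaves incretin hormones, and is given to lower glucose in type 2 diabetes. In the heart DPP-4 is known mainly from endothelial cells. The adult cardiomyocyte burns mostly fatty acids, and PPARα, a nuclear receptor for fatty acids, switches on genes of their uptake, oxidation and storage. In diabetes the heart is known to take up still more fat and less glucose. A culture of isolated cardiomyocytes also carries some endothelial cells, pericytes, fibroblasts and leukocytes, so each mRNA was read beside marker lists of those cells. Dpp4 itself is not analysed here.

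Levels are in FPKM, a count of sequenced fragments scaled to transcript length and to the mapped fragments of the library, which corrects for transcript length and library size. The read totals behind the values are not in the files, so precision comes only from the spread between libraries. A gene was tested where its mean reached 0.5 FPKM in either group, which held for 11555 of 11631 genes. Differences are log2 fold changes of FPKM + 1, DM-HFD minus control, given ± SE, and they understate the change of genes at a low level. Adjusted p-values are from limma with Benjamini-Hochberg adjustment over all 11555 genes, and "rose", "fell" and "called" mean an adjusted p under 0.05.

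The 3 DM-HFD libraries were unlike each other. Replicate 1 lay close to the controls, with Spearman correlations across genes of 0.954 to 0.968 with the control libraries, while replicate 2 (0.839 to 0.879) and replicate 3 (0.896 to 0.920) lay farther away. The control libraries correlated with each other at 0.962 to 0.988. The median gene of DM-HFD replicate 1 was 0.22 log2 units from the control mean, against 0.50 for replicate 2 and 0.44 for replicate 3. Control replicate 3 stood 0.20 from the other controls, the farthest of its group. Marker lists separated the DM-HFD libraries too, and the plot of marker lists shows their sums. Replicate 1 had the lowest endothelial sum, 93.3, 353 and 158 FPKM in DM-HFD replicates 1, 2 and 3 against 219 to 377 FPKM in the controls. Replicate 2 had the most macrophage and leukocyte mRNA (96.3, 377 and 256 FPKM against 98.3 to 102) and red cell mRNA (6.92, 437 and 23.4 FPKM against 6.81 to 15.97). Fibroblast sums were 64.2, 435 and 173 FPKM against 126 to 175, and cardiomyocyte marker sums were 14624, 10115 and 17648 FPKM against 12605 to 12884, so the labelled cell type carried most of the marker signal in every library. The share of FPKM from mitochondrially encoded mRNAs was 39.8, 41.4 and 26.5% in the DM-HFD libraries and 33.1 to 40.0% in the controls, a difference of 0.03 percentage points (two-sided exact permutation test, p = 1). With 3 libraries against 5 that test cannot give a p below 0.0179. Of the 10 marker sums, that of pericyte and smooth muscle markers reached this limit (683, 971 and 1003 against 461 to 622 FPKM, exact permutation p = 0.0179, 0.179 adjusted over the 10 lists). Most of this sum was desmin, which cardiomyocytes also make in quantity. Of the 15 markers in it, 5 were called lower and 3 higher, so the sum is no measure of pericytes. The part of the differences between libraries in the gene results below was not tested.

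**Figure D1:**
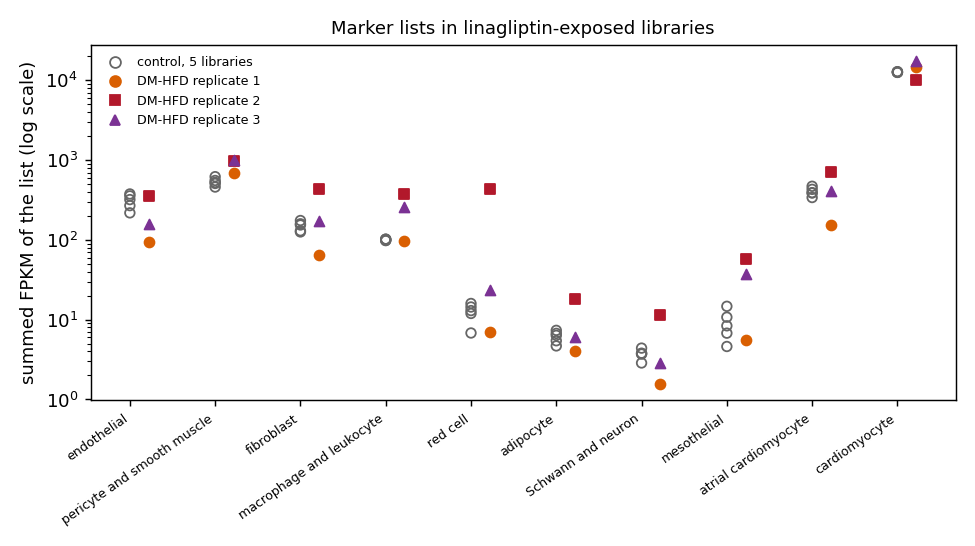
Summed FPKM (log scale) of 10 marker lists in each linagliptin library, with open circles for the 5 control libraries and filled symbols for the 3 DM-HFD libraries. DM-HFD replicate 1 lies below all controls for endothelial, fibroblast and atrial markers, and DM-HFD replicate 2 lies far above them for red cell markers (436.9 against 6.81 to 15.97 FPKM).

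Far more genes fell than rose. Of the 11555 genes tested, 540 rose (4.67%) and 2529 fell (21.9%), 26.6% in all, and the median log2 fold change over all genes was -0.06. By a fold of at least 1.5 with an unadjusted p of at most 0.05, 442 genes (3.83%) were higher and 2074 (17.9%) lower. The values of the 2 groups did not overlap for 722 genes that were higher (6.25%) and 2519 that were lower (21.8%). The counts rested on single libraries: 2357 genes were higher and 3439 lower without DM-HFD replicate 1, 168 and 1826 without replicate 2, and 5 and 101 without replicate 3. Leaving out control replicates 1 to 5 in turn gave 166, 120, 458, 272 and 174 higher and 1912, 1517, 2332, 1826 and 1690 lower. The balance between the directions also depended on the scaling. Genes that rose were 17.6% of the calls as deposited, 6.32% in TPM (FPKM rescaled to a common total), 10.8% rescaled over genes not encoded in mitochondria, 42.5% with median-of-ratios scaling and 47.9% with quantile scaling. Across 11416 genes with an annotated transcript, the log2 fold change correlated with transcript length (Spearman's rho = -0.42) and with GC content (0.67), a description across genes, which are not independent. The median transcript of the genes that fell was 4069 bases long with 43.9% GC, against 1791 bases and 55.6% GC for those that rose and 2803 bases and 50.5% GC for all genes tested. Once each library's trends with length and GC were taken out, 254 genes rose and 356 fell. The part of these trends in the results below was not tested.

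Genes of the acute phase and of macrophages were among the largest rises. Serpina3n, a secreted acute phase protease inhibitor, was at 2.79, 2.15, 2.44, 3.29 and 3.19 FPKM in control replicates 1 to 5 and at 4.295, 95.01 and 9.67 FPKM in DM-HFD replicates 1 to 3 (2.23 ± 0.73, adjusted p = 0.0469), and its call was lost without any one control or without DM-HFD replicate 3. Wfdc17, a small secreted protein of activated macrophages, was at 2.53, 3.401, 3.29, 2.35 and 1.72 FPKM against 5.09, 27.4 and 6.504 FPKM (1.597, adjusted p = 0.0245). Both were highest in DM-HFD replicate 2, the library with the highest macrophage sum. Cd68, a lysosomal protein of macrophages, was also highest there (13.02, 15.8, 14.1, 16.3 and 16.4 against 20.7, 66.7 and 42.98 FPKM, 1.32, adjusted p = 0.0145).

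Of the other genes among the 10 largest rises, Ninj1, which ruptures the plasma membrane of dying cells, was at 17.1, 15.8, 23.3, 16.5 and 14.96 FPKM in the controls and 33.999, 63.2 and 70.4 FPKM in the DM-HFD libraries (1.57 ± 0.24, adjusted p = 0.00644). Psat1, an enzyme of serine synthesis, was nearly constant in the controls (11.3, 11.5, 11.5, 12.3 and 11.2 FPKM) and rose to 17.2, 39.01 and 44.5 FPKM (1.36 ± 0.26, adjusted p = 0.00942). Hspb1, the small heat shock protein Hsp27, was at 349.9, 275, 222, 311 and 279 FPKM against 459.6, 645 and 807 FPKM (1.13, adjusted p = 0.00896). For these 3 genes DM-HFD replicate 1 lay nearest the controls and replicate 3 farthest. Aqp8, a water and ammonia channel, was at 3.04 to 7.69 FPKM in the controls and 9.71 to 18.6 FPKM in the DM-HFD libraries (1.22, adjusted p = 0.014995). Cgref1, a calcium-binding growth regulator (1.37, adjusted p = 0.0115), and Ces2g, a carboxylesterase (1.27, adjusted p = 0.0265), rose too. Without DM-HFD replicate 3, none of the 9 described was called.

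**Figure D2:**
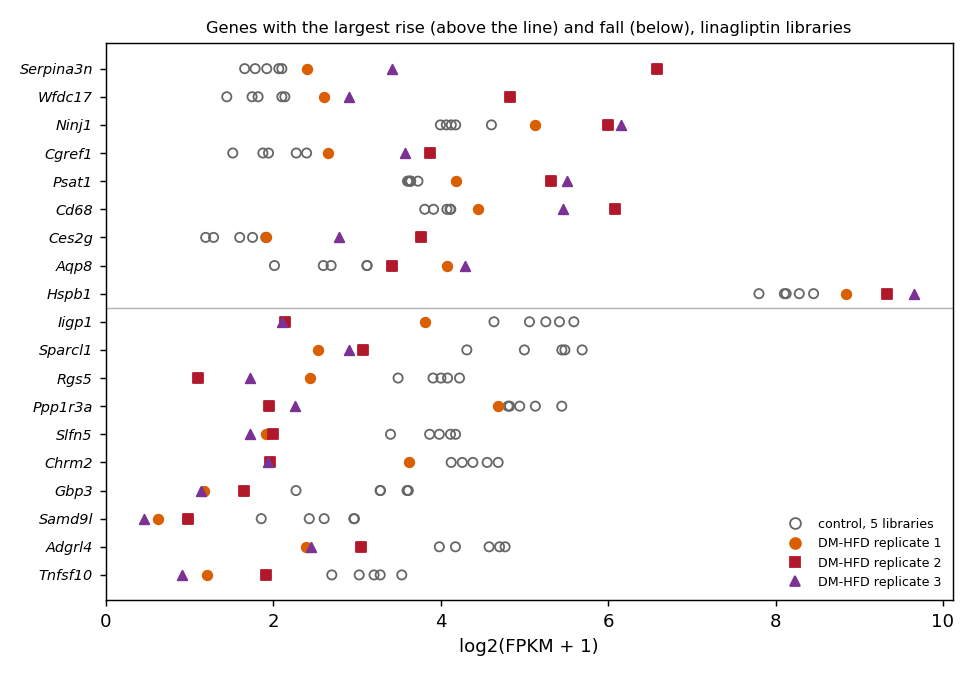
Level of 9 of the 10 genes with the largest rise and the 10 with the largest fall, as log2(FPKM + 1) on the x axis, with open circles for the 5 control libraries and filled symbols for DM-HFD replicates 1 to 3. The genes were chosen among calls whose groups do not overlap, so the gap between the groups is set by that choice. DM-HFD replicate 1 is the nearest to the controls for Serpina3n (4.30 FPKM against a control maximum of 3.29) and Ppp1r3a (24.7 against a control minimum of 27.0).

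Of the genes that rose, 5 (0.0433% of those tested) kept their call whichever library was left out. Among them were Ech1, Ephx2, Fam89b and Zbtb42, and the last 3 are named for this count after their values were seen. Ech1, an enzyme that isomerises double bonds during the oxidation of unsaturated fatty acids, was at 307, 293, 313, 314 and 322 FPKM in the controls and 506, 532 and 537 FPKM in the DM-HFD libraries (0.76 ± 0.11, adjusted p = 0.00587). Ephx2, which hydrolyses fatty acid epoxides, was at 50.9, 42.6, 56.8, 46.5 and 40.3 FPKM against 88.5, 103 and 98.6 FPKM (1.02 ± 0.15, adjusted p = 0.00543). Ech1 and Ephx2 thus differed little between the DM-HFD libraries. Zbtb42, a zinc finger repressor of skeletal muscle, was near the limit of the table in the controls (0.0503 to 0.174 FPKM) and at 0.887, 1.46 and 1.395 FPKM in the DM-HFD libraries (1.003, adjusted p = 0.00376). Fam89b was at 5.15, 3.85, 6.14, 4.32 and 3.53 FPKM against 12.5, 11.5 and 8.91 FPKM (1.103, adjusted p = 0.00752).

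Among genes that fell, 100 (0.865% of those tested) kept the call without each library in turn, and 6 of them stood among the 10 largest falls. Sparcl1, a secreted matrix protein of vessels, dropped from 30.99, 43.7, 18.9, 42.6 and 50.6 FPKM to 4.797, 7.43 and 6.46 FPKM (-2.35 ± 0.29, adjusted p = 0.00419). Rgs5, a brake on G protein signalling and the classical pericyte marker, dropped from 15.9, 17.7, 10.2, 14.01 and 15.03 FPKM to 4.43, 1.14 and 2.29 FPKM (-2.19 ± 0.28, adjusted p = 0.00438). Adgrl4, an adhesion receptor of endothelial cells, dropped from 17.1, 22.9, 14.8, 25.04 and 26.3 FPKM to 4.25, 7.24 and 4.44 FPKM (-1.82 ± 0.23, adjusted p = 0.00419). The 10 largest falls were chosen among calls whose groups do not overlap. That these 3 genes of the vessel wall lay below every control was thus set by the choice. Among the DM-HFD libraries Sparcl1 and Adgrl4 were highest in replicate 2. Slfn5 (2.75, 3.01 and 2.297 FPKM against 14.8, 16.3, 9.56, 13.6 and 17.1, -2.03 ± 0.19, adjusted p = 0.00254), Samd9l (-1.88, adjusted p = 0.00509) and Tnfsf10 (-1.81, adjusted p = 0.00521), which encodes the death ligand TRAIL, are genes that interferon is known to induce.

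The next genes of the 10 were lowest in DM-HFD replicates 2 and 3. Chrm2, the muscarinic receptor that slows the heart, was at 16.4, 22.5, 24.7, 18.1 and 19.9 FPKM in the controls and 11.3, 2.901 and 2.84 FPKM in the DM-HFD libraries (-1.89 ± 0.35, adjusted p = 0.00911). Ppp1r3a, which carries protein phosphatase 1 to glycogen, was at 27.3, 34.04, 42.6, 26.95 and 29.8 FPKM against 24.7, 2.86 and 3.796 FPKM (-2.06 ± 0.52, adjusted p = 0.0193). Iigp1, an interferon-inducible GTPase, was at 23.9, 41.8, 47.2, 32.4 and 37.2 FPKM against 13.1, 3.3999 and 3.31 FPKM (-2.51 ± 0.38, adjusted p = 0.00631). Ppp1r3a in DM-HFD replicate 1, at 24.7 FPKM, was close to the lowest control, whereas replicates 2 and 3 were far below. Gbp3 is described with its family below.

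Of 42 tested genes of an interferon and antigen presentation list, 12 fell (28.6%) and 3 rose (7.14%), against 21.9% and 4.67% of all genes, and the median log2 fold change was -0.47. Interferons act on their target genes through an interferon-stimulated response element, and the genes that fell were of the GTPase families that act on intracellular microbes and of the antiviral effectors. Gbp3, a guanylate-binding protein, was at 11.1, 11.2, 3.83, 8.72 and 8.68 FPKM in the controls and 1.26, 2.13 and 1.202 FPKM in the DM-HFD libraries (-1.89 ± 0.29, adjusted p = 0.00664). Rsad2, the antiviral enzyme viperin, was at 7.89, 8.88, 3.24, 6.92 and 6.36 FPKM against 1.09, 1.73 and 1.29 FPKM (-1.64 ± 0.25, adjusted p = 0.006499). Gbp9 (-1.32, adjusted p = 0.00575) and Gbp4 (-1.17, adjusted p = 0.00616) fell as well, and Gbp9 kept its call without each library in turn. Control replicate 3 was the lowest control for Gbp3, Gbp4, Gbp9 and Rsad2, and the 3 DM-HFD libraries lay below it in each case. For Gbp3 this gap was set by the rule that named it. Of the 42 genes, 9 lay below every control in all DM-HFD libraries, against 21.8% of all genes. The remaining genes that fell were Gbp5, Gbp7, Ifit2, Ifi44, Irgm1, Tgtp1, Tgtp2 and Iigp1. Gbp genes and the Tgtp1 and Tgtp2 pair have near-identical relatives between which reads can be split: summed from the listed transcripts, Gbp4 gave 0.43 and Gbp9 0.05 in place of a fall. The 3 that rose were Ifi27 (0.99, adjusted p = 0.0215) and 2 genes of antigen presentation by leukocytes, Cd74 (1.03, adjusted p = 0.0429) and H2-Ab1 (0.70, adjusted p = 0.0477), and all 3 lost their calls without DM-HFD replicate 2 or 3. Cd74 also lost its call without any one of the 5 controls, H2-Ab1 without any one of 4 of them, and Ifi27 held without each control. The signal transducer Stat2 did not pass the test (-0.56, adjusted p = 0.171). Without DM-HFD replicates 1, 2 and 3 in turn, 14, 19 and 1 of the 42 fell, and 8, 0 and 0 rose. The list's median was -0.28 without DM-HFD replicate 1 and -0.70 without replicate 2. It stayed negative under each scaling and was positive (0.74) in the model of Ballgown, which adds a library covariate.

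Promoters of these genes were searched for letters of the response element. The letters searched were GAAA, any 2 bases and GAAA again, its core, on both strands, in the 250 bases before the gene start in RefSeq promoters of GRCm38.p6. They were present for 280 of 8961 tested genes with a promoter (3.12%), for 17 of 32 genes of the list and for 7 of its 9 genes that fell and had one (Gbp3, Gbp5, Gbp7, Irgm1, Rsad2, Tgtp1 and Tgtp2, not Ifi44 or Ifit2). Of the list's genes that did not pass the test, 10 of 23 held them. Over all genes they were present before 61 of 1964 genes that fell and 13 of 412 that rose. The stretches before Rsad2, Gbp3, Irgm1 and Slfn5 are shown because these are genes that fell and hold the letters, which are in capitals; capitals in Gbp3 and Irgm1 cover 2 overlapping matches, and those of Slfn5 run into a stretch of A. A match marks letters, not a bound factor.
Rsad2, chr12:26456453-26456702, minus strand, GRCm38.p6, match from 120 bases before the start: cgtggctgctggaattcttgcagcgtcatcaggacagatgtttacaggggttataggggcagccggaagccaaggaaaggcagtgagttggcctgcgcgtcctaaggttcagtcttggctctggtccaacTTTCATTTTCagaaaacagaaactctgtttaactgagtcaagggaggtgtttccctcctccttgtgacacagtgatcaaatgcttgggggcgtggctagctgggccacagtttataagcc
Gbp3, chr3:142559794-142560043, plus strand, GRCm38.p6, first match from 45 bases before the start: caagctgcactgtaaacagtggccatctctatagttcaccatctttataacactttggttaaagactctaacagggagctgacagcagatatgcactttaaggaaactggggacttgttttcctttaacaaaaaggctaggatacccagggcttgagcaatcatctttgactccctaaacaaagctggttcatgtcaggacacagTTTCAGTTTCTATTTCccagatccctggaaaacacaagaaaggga
Irgm1, chr11:48871421-48871670, minus strand, GRCm38.p6, first match from 30 bases before the start: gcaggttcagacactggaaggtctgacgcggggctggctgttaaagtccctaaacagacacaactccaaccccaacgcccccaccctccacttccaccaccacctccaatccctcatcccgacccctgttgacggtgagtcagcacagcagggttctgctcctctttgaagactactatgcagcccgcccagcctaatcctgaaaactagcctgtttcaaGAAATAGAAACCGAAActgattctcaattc
Slfn5, chr11:82951852-82952101, plus strand, GRCm38.p6, match from 155 bases before the start: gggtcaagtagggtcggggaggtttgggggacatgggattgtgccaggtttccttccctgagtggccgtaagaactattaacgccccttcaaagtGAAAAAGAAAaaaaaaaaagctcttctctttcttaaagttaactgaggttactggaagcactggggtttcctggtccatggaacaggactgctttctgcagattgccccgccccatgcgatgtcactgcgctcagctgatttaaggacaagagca

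Of 24 endothelial markers, 7 fell (29.2%, against 21.9% of all genes), none rose and the median log2 fold change was -0.72. In bulk RNA, fewer endothelial cells and less of an mRNA per cell cannot be told apart. Kdr, the main VEGF receptor, was at 15.3, 20.98, 13.01, 21.6 and 25.1 FPKM in the controls and 4.57, 9.91 and 5.65 FPKM in the DM-HFD libraries (-1.41 ± 0.26, adjusted p = 0.00908). Fabp4, the fatty acid carrier of heart capillaries, was at 30.3, 36.2, 34.5, 50.6 and 59.1 FPKM against 12.2, 11.003 and 10.02 FPKM (-1.796 ± 0.22, adjusted p = 0.00415) and kept its call without each library in turn. Erg, an endothelial transcription factor (-1.22, adjusted p = 0.00945), the phosphatase Ptprb (-1.03, adjusted p = 0.0163), Flt1, Sox17 and Robo4 also fell. The other 17, among them Pecam1, Cdh5 and Vwf, did not pass the test. Without DM-HFD replicate 2, 17 of the 24 were lower, and without replicate 3, 1 was. The median of the list was negative under each scaling and 0.73 in the model of Ballgown.

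Of 15 pericyte and smooth muscle markers, 5 fell (33.3%: Rgs5, Higd1b, Mcam, Notch3 and Kcnj8) and 3 rose (20%: Des, Acta2 and Cnn1), against 21.9% and 4.67% of all genes. The 7 that did not pass the test were Abcc9, Cspg4, Tagln, Myl9, Pdgfrb, Vtn and Myh11. Higd1b was at 1.12, 0.788, 0.347, 1.17 and 0.779 FPKM in the controls and was listed at 0 in all 3 DM-HFD libraries. Mcam, an adhesion molecule of the vessel wall, was at 4.79 to 9.605 FPKM in the controls and 1.08 to 3.93 FPKM in the DM-HFD libraries (-1.34, adjusted p = 0.0117). Desmin, which cardiomyocytes also make in quantity, carried most of the sum, with 381, 412, 420.0, 519 and 455 FPKM in the controls and 613, 799.6 and 887 FPKM in the DM-HFD libraries (0.80 ± 0.16, adjusted p = 0.0104).

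Of 21 genes of hypoxia factors and growth factors, 6 fell (28.6%, against 21.9% of all genes), none rose and the median was -0.50. Vegfa, the main factor for capillary growth, was at 23.4, 23.7, 22.98, 18.4 and 25.8 FPKM in the controls and 15.000, 7.39 and 8.59 FPKM in the DM-HFD libraries (-1.12 ± 0.21, adjusted p = 0.00935). Hif1a, which drives the response to low oxygen, was at 27.2, 36.4, 26.1, 29.5 and 27.9 FPKM against 20.9, 8.21 and 9.69 FPKM (-1.23 ± 0.26, adjusted p = 0.0118). Both were lower in each DM-HFD library than in any control, with replicate 1 the nearest. Naming by the lowest adjusted p favours such a gap, which 6 of the 21 genes showed, against 21.8% of all genes. The peptide apelin (Apln, -1.49, adjusted p = 0.0145) and its receptor (Aplnr, 1.598, 2.77, 1.03, 1.73 and 2.41 against 0.09102, 0.196 and 0.137 FPKM, -1.32 ± 0.19, adjusted p = 0.00565) both fell, and Aplnr, a gene of endothelial cells, kept its call without each library. The list's median stayed negative in each alternative in which it was computed, from -0.36 in the model of Ballgown to -0.84 in TPM. Vegfb, Fgf2 and Pdgfa were among the 15 that did not pass the test.

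**Figure D3:**
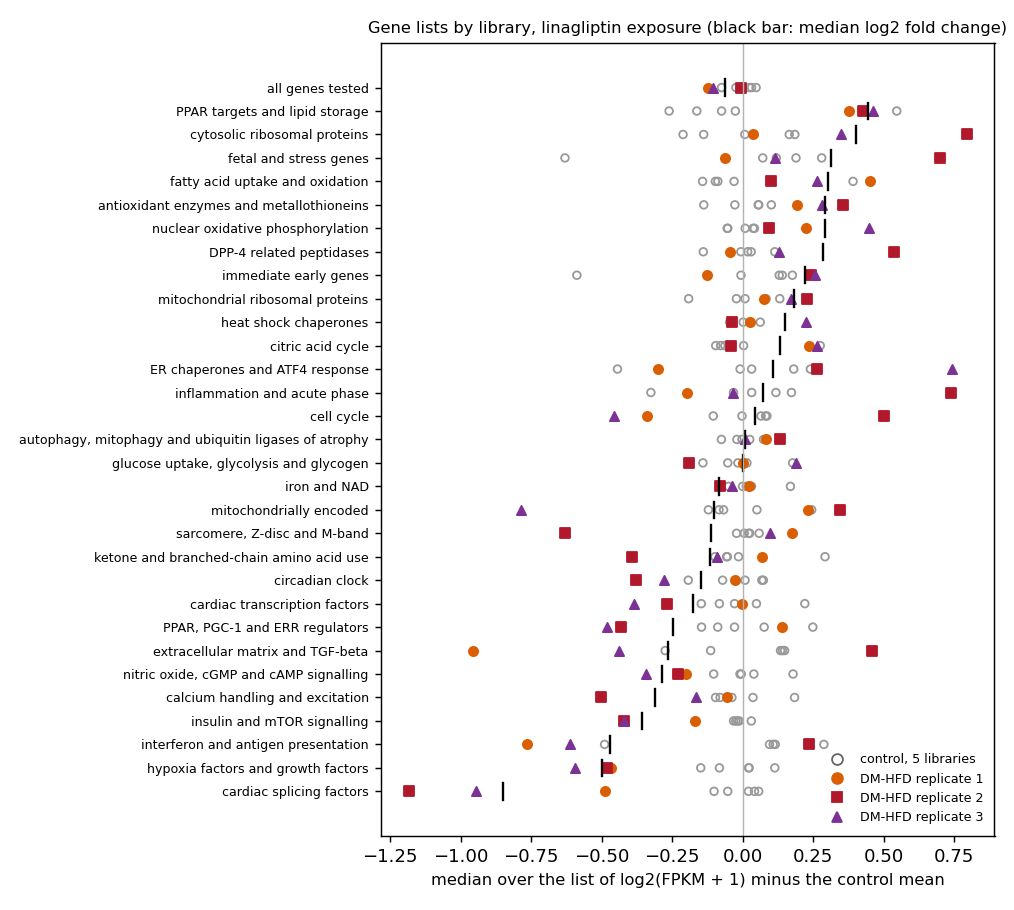
Median over each of 30 gene lists, and over all genes tested (top row), of log2(FPKM + 1) minus the control mean, for each library, with open circles for the 5 controls, filled symbols for DM-HFD replicates 1 to 3 and a black bar for the median log2 fold change. All 3 DM-HFD libraries lie below all controls for cardiac splicing factors (-0.85), while for extracellular matrix genes replicate 1 and replicate 2 lie on opposite sides of the controls.

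Splicing factors had the lowest median of the 30 pathway lists in the comparison with linagliptin. Of 28 factors, 18 fell (64.3%, against 21.9% of all genes), none rose, and all 28 had a negative log2 fold change (median -0.85). These are mainly SR proteins, hnRNP proteins, the CLK kinases that phosphorylate SR proteins, and tissue factors such as MBNL and QKI that set the muscle pattern of splicing. Srsf1, an SR protein needed for splicing of cardiac calcium handling genes, was at 9.004, 9.64, 7.99, 8.08 and 8.79 FPKM in the controls and 4.18, 2.599 and 3.08 FPKM in the DM-HFD libraries (-1.19 ± 0.15, adjusted p = 0.00415), and was the single member to keep its call without each library. Srsf5 was at 44.2, 46.9, 41.3, 48.3 and 50.9 FPKM against 28.8, 18.3 and 20.5 FPKM (-1.03, adjusted p = 0.00685). Hnrnpu, required for splicing in the heart, was at 32.1, 33.2, 29.3, 33.6 and 35.7 FPKM against 20.4, 11.7 and 14.7 FPKM (-1.06, adjusted p = 0.00752), and Srsf10 fell too (-1.09, adjusted p = 0.00644). In these 4 genes the DM-HFD libraries did not overlap the controls and replicate 1 was the nearest to them. The 4 were named for the lowest adjusted p of the list, a choice that favours such a gap. Groups did not overlap for 19 of the 28 factors, all lower, against 21.8% of all genes. Also lower were Srsf2, Srsf3, Srsf11, Tra2a, Tra2b, Hnrnpa1, Hnrnpa2b1, Mbnl1, Mbnl2, Qk, Ptbp2, Rbm25, Clk1 and Clk4. Rbm20, Rbm24, Celf1, Rbfox1 and Rbfox2, which act on titin and other muscle transcripts, did not pass the test. The count was 24 without DM-HFD replicate 1, 19 without replicate 2 and 1 without replicate 3. The median stayed negative in each alternative and was -0.37, with 8 called, once trends with length and GC were taken out.

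Isoform use changed in few genes at the test's threshold. The share of each listed transcript within its gene was tested for 10071 transcripts of 3961 genes, on the arcsine square root scale with limma, and 21 transcripts (0.209%) of 15 genes (0.379%) differed at an adjusted p under 0.05 with at least 10 percentage points. Without the adjustment, 1066 transcripts (10.6%) had a p under 0.05, and the groups did not overlap for 817 (8.11%). Shares refer to the protein coding transcripts that the table lists, and in many genes a transcript was present in some libraries of a group and listed at 0 in others. The leading transcript of 694 of the 3961 genes differed between the groups by mean share.

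Luc7l2, a splicing factor of the U1 particle, changed form. Luc7l2-207 (chr6:38551803-38609427, plus strand, 2405 bases) held 52.8, 57.2, 37.9, 59.5 and 63.8% of the gene in the controls and 0% in all 3 DM-HFD libraries (adjusted p = 0.00731). Luc7l2-201 (chr6:38551465-38609470, 2702 bases), which starts and ends farther out, held 9.32, 8.96, 11.1, 7.56 and 7.56% against 70.7, 54.4 and 65.3% (adjusted p = 0.00762). The summed transcripts of the gene had a mean of 21.6 FPKM in the controls and 8.44 FPKM in the DM-HFD libraries. With vehicle, Luc7l2-207 was also at 0% in the 3 DM-HFD libraries and at 61.6, 56.1, 50.2, 0 and 56.5% in the 5 controls, so 1 of those controls looked like the DM-HFD libraries, and the difference did not pass there (adjusted p = 0.40).

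With linagliptin, transcripts of scaffold proteins showed a loss of one form. Dlg1-201 (chr16:31664150-31872684), of the scaffold SAP97 that binds cardiac ion channels, held 28.1, 46.7, 39.9, 53.1 and 39.8% in the controls and 0% in the DM-HFD libraries (adjusted p = 0.00987). Ank3-231 (chr10:69533772-70027438), of ankyrin-G, which anchors the cardiac sodium channel, held 29.4, 28.2, 29.8, 38.9 and 23.7% against 0.02099, 0.0678 and 0.0485% (adjusted p = 0.00987). Both calls held without each library in turn. With vehicle Dlg1-201 was at 52.4, 11.7, 32.9, 24.2 and 26.7% in the controls and 0, 19.5 and 0% in the DM-HFD libraries. Ank3-231 was at 30.2, 31.5, 0.411, 20.3 and 0.678% against 0.605, 30.9 and 3.79% there. In both transcripts the groups overlapped with vehicle, and neither passed the test. Ngly1-207, of an enzyme that strips sugars from misfolded proteins, was at 34.4, 26.8, 27.6, 19.1 and 19.2% against 0% with linagliptin (adjusted p = 0.0198). With vehicle it was at 23.4, 22.8, 16.7, 14.4 and 28.7% in the controls and 0, 19.4 and 0% in the DM-HFD libraries and did not pass.

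In other genes the shares with vehicle are given beside those with linagliptin, and the difference between the exposures was not tested. Dis3l-203 (chr9:64307011-64341153, minus strand), of a subunit of the RNA-degrading exosome, rose from 0, 0, 0, 0.343 and 0% in the controls to 81.7, 67.9 and 71.4% in the DM-HFD libraries (adjusted p = 0.00053), and the call held without each library. In the vehicle libraries it was at 0% in all 3 DM-HFD libraries and at 0, 0, 0.261, 59.3 and 0% in the controls. Fbf1-202, of a centrosome protein, fell from 99.4, 99.8, 85.01, 99.99 and 99.7% to 46.4, 22.4 and 22.98% with linagliptin (adjusted p = 0.0299). With vehicle it was at 7.23, 4.18, 50.96, 30.2 and 0.296% in the controls and at 30.99 and 28.3% in the 2 DM-HFD libraries where the gene was above 0. Bud13-201, of a splicing factor, was at 100% in all 5 controls with linagliptin and at 79.7, 71.1 and 81.8% in the DM-HFD libraries (adjusted p = 0.0116), but at 83.3, 55.97, 55.6, 51.9 and 65.2% in controls with vehicle. Zmym4-201 (40.4, 67.98, 33.7, 38.7 and 14.7% against 100, 100 and 98.9%) and Oaz2-201 (66.1, 40.6, 45.8, 51.6 and 49.3% against 6.59, 5.42 and 6.57%) lost their calls without any of several libraries, and the Zmym4 shares ran from 1.95 to 100% among vehicle controls. Srgap2-204, of a regulator of the cell's cortex, was at 1.73, 0.104, 0.343, 3.59 and 0.204% in the controls and 40.5, 33.04 and 51.2% in the DM-HFD libraries with linagliptin (adjusted p = 0.0195). With vehicle it was at 26.6, 0.384, 0.649, 41.5 and 22.1% against 12.6, 28.5 and 19.9%, so the groups overlapped there (adjusted p = 0.872). Yipf2-204, of a Golgi membrane protein, was at 40.8, 55.5, 24.7, 28.1 and 36.7% against 0% in all 3 DM-HFD libraries with linagliptin (adjusted p = 0.0258). With vehicle the DM-HFD libraries were at 43.997, 40.2 and 41.5%, within the control range of 31.8 to 91.5% (adjusted p = 0.7496). Mpnd-204 was at 56.7, 66.5, 57.3, 66.7 and 78.97% against 100, 96.8 and 100% (adjusted p = 0.0452) and with vehicle at 90.4, 96.8, 70.5, 64.7 and 66.7% against 94.1, 61.5 and 96.7%. Ubap2l-203 was at 0.137 to 0.452% in the controls and at 27.1, 37.5 and 30.8% in the DM-HFD libraries (adjusted p = 0.0116), and with vehicle at 0.123, 20.9 and 0.0477% in the DM-HFD libraries. In these 4 transcripts the groups overlapped with vehicle. Of the 15 genes, the leading transcript moved the same way with vehicle in 11, by at least 10 percentage points in 5. With vehicle 7 of 3875 genes were called (0.181%). The remaining genes were Entpd5 and Fndc3a. In the 15 genes the longest tested transcript gained share in 9 and lost share in 6. The count of genes was 86, 33 and 25 without DM-HFD replicates 1, 2 and 3 and 9 without control replicate 3.

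**Figure D4:**
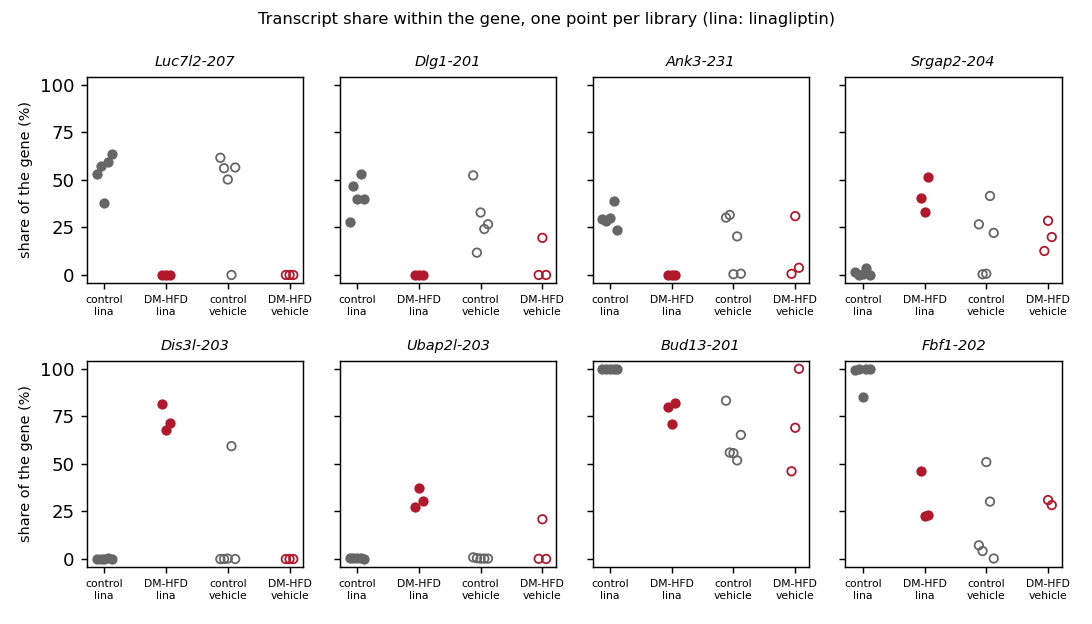
Share of 8 transcripts within their gene (%), 1 point per library, with filled points for linagliptin, open points for vehicle, grey for control and red for DM-HFD. Luc7l2-207 is at 0% in the DM-HFD libraries of both exposures, whereas Dis3l-203 is at 67.9 to 81.7% in the DM-HFD libraries with linagliptin and at 0% in those with vehicle.

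Genes of fatty acid use rose in part. Of 34 genes for uptake and oxidation of fatty acids, 8 rose and none fell (median 0.30), and of 28 PPAR targets and genes of lipid storage, 6 rose and none fell (median 0.45). Background shares for a rise and a fall are the 4.67% and 21.9% given above. Acaa2, the thiolase of the last step of mitochondrial beta-oxidation, was at 309, 288, 399, 311 and 294 FPKM in the controls and 508, 451 and 579 FPKM in the DM-HFD libraries (0.68 ± 0.15, adjusted p = 0.0136). Fabp3, the heart's cytosolic fatty acid carrier, was at 1326, 1273, 1449, 1239 and 1244 FPKM against 1881, 1594 and 2065 FPKM (0.49 ± 0.13, adjusted p = 0.0228). The Fabp3 call was lost without control replicate 1, 2, 4 or 5, without DM-HFD replicate 3, and in TPM. Acads, the short-chain acyl-CoA dehydrogenase (0.59, adjusted p = 0.014995), Etfb, which passes its electrons on (0.48, adjusted p = 0.0207), Eci1, Slc25a20 and Acadvl completed the 8 with Ech1. Among the 8, Ech1 was the one member to hold without each library. The rate-limiting importers Cpt1a and Cpt1b did not pass the test, nor did the surface transporter Cd36, which was at 169, 215, 328, 208 and 246 FPKM against 249, 79.98 and 95.4 FPKM (-0.87 ± 0.35, adjusted p = 0.0848).

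Genes of fat storage and release rose in part. Pnpla2, the lipase that opens triglyceride stores, was at 44.7, 48.6, 81.7, 60.9 and 54.5 FPKM in the controls and 91.1, 109 and 115 FPKM in the DM-HFD libraries (0.87 ± 0.20, adjusted p = 0.0146). Cidea, a lipid droplet protein, was at 13.4, 16.6, 18.3, 16.2 and 18.2 FPKM against 23.3, 31.4 and 24.9 FPKM (0.65 ± 0.15, adjusted p = 0.0159), and the mitochondrial carrier Ucp2 also rose. Other classical PPAR targets did not pass the test and differed widely between libraries of one group. Pdk4, which blocks glucose oxidation, was at 50.4, 48.01, 324, 58.3 and 61.01 FPKM in the controls and 225, 56.98 and 103.6 FPKM in the DM-HFD libraries (0.50 ± 0.63, adjusted p = 0.566). Angptl4, an inhibitor of lipoprotein lipase, was at 5.71, 5.81, 26.6, 18.1 and 19.4 FPKM against 20.2, 27.3 and 40.6 FPKM (1.09 ± 0.48, adjusted p = 0.115), and Ucp3 at 1.77, 2.28, 16.5, 2.58 and 2.297 FPKM against 7.02, 2.104 and 3.47 FPKM (0.09 ± 0.57, adjusted p = 0.912). Control replicate 3 held the highest control value of all 3. Without it, 13 of 34 genes of fatty acid use and 11 of 28 PPAR targets rose. In TPM these counts were 2 and 4 and under median-of-ratios scaling 10 and 9. Without DM-HFD replicates 1, 2 and 3 in turn, 8, 7 and 1 genes of fatty acid use and 10, 4 and 1 PPAR targets rose. Ech1, Acaa2, Acads, Fabp3, Pnpla2 and Cidea lost their calls once trends with length and GC were taken out. The median of PPAR targets was positive in each alternative (0.25 to 0.57), and that of fatty acid use was -0.16 in the model of Ballgown. With vehicle, 5 of 34 rose and 4 fell.

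Among the regulators of these genes, Ppargc1a, the coactivator PGC-1α of mitochondrial genes, was at 5.97, 8.07, 11.7, 7.07 and 7.32 FPKM in the controls and 8.75, 2.26 and 2.21 FPKM in the DM-HFD libraries (-0.92 ± 0.35, adjusted p = 0.0773), so DM-HFD replicates 2 and 3 were below all controls and replicate 1 was within their range. Of 19 regulators of the PPAR, PGC-1 and ERR family, 4 fell (21.1%) and 1 rose (5.26%), close to the shares of all genes. Those that fell were the deacetylase Sirt1 (-1.17, adjusted p = 0.0146), Gabpa, a factor for respiratory chain genes (-1.09, adjusted p = 0.0161), Pparg (-0.50, adjusted p = 0.03003) and Esrrg. The riser was Ppard (7.33, 7.63, 7.08, 7.32 and 7.86 against 8.204, 13.6 and 12.8 FPKM, 0.54, adjusted p = 0.0352), which was lost without any one library except DM-HFD replicate 1. Ppara did not pass the test.

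A few respiratory chain subunits rose. Of 77 nuclear genes of oxidative phosphorylation, 8 rose (10.4%) and none fell, against 4.67% and 21.9% of all genes. In the upward direction 32 had no overlap with the controls (background 6.25%), and the median was 0.29. Cox6a2, the muscle subunit of cytochrome oxidase, was at 1287, 1222, 1320.4, 1334 and 1273 FPKM in the controls and 1599, 1786 and 2285 FPKM in the DM-HFD libraries (0.54 ± 0.14, adjusted p = 0.0211). Cox4i1, of the same complex, was at 367, 351, 457, 378 and 360.2 FPKM against 473, 623 and 814 FPKM (0.70 ± 0.18, adjusted p = 0.0211). Both rose least in DM-HFD replicate 1 and most in replicate 3. Ndufa7 of complex I (0.64, adjusted p = 0.02395) and Atp5e of the ATP synthase (0.57, adjusted p = 0.0268) also rose. The count depended on the scaling: 31 rose with median-of-ratios scaling, 1 with quantile scaling and 0 in TPM, and the median was -0.04 once trends with length and GC were taken out. Of the 13 mitochondrially encoded mRNAs, 1 rose (7.69%). It was mt-Co3, at 10173, 8845, 9899, 9482 and 9181 FPKM against 13395, 24355 and 13658 FPKM (0.79 ± 0.19, adjusted p = 0.0178). The other 12 did not pass, with a median of -0.10 over the 13, and the group median in DM-HFD replicate 3 was -0.79. With vehicle 8 of the 13 rose.

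In the citric acid cycle 3 of 22 genes rose (13.6%) and 2 fell (9.09%), against 4.67% and 21.9% of all genes. Idh2 (227 to 299 FPKM in the controls and 324 to 502 FPKM in the DM-HFD libraries, 0.62, adjusted p = 0.0256) and Mdh2 (0.52, adjusted p = 0.0439) rose, whereas Sucla2, the ATP-forming subunit of succinyl-CoA synthetase, was at 134, 118, 165, 129 and 132 FPKM in the controls and 114, 29.5 and 57.1 FPKM in the DM-HFD libraries (-1.21 ± 0.34, adjusted p = 0.0294). Dld, a subunit shared by the dehydrogenases of pyruvate, 2-oxoglutarate and branched-chain keto acids, was at 134, 135, 169, 129 and 134 FPKM against 114, 33.5 and 57.8 FPKM (-1.19 ± 0.31, adjusted p = 0.0228). In both genes that fell, replicate 1 was near the controls and replicates 2 and 3 were far below them. The Sucla2 call was lost without any one control, and those of Idh2 and Mdh2 without any of several controls. Idh2 and Mdh2 also lost their calls in TPM. Without DM-HFD replicate 3, 0 genes of the list rose and 0 fell.

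Of 25 genes for the use of branched-chain amino acids and ketone bodies, 6 fell (Dbt, Ppm1k, Dld, Hibch, Mut and Oxct1) and 2 rose (Bckdk and Bckdha). These shares of 24% and 8% were near those of all genes (21.9% and 4.67%), with a list median of -0.12. The branched-chain dehydrogenase is switched off by the kinase Bckdk and on by the phosphatase Ppm1k. Bckdk was at 14.7, 16.3, 18.3, 16.3 and 13.8 FPKM in the controls and 20.9, 23.5 and 25.4 FPKM in the DM-HFD libraries (0.52 ± 0.14, adjusted p = 0.0217). Ppm1k was at 8.204, 8.45, 11.5, 6.98 and 7.62 FPKM against 6.67, 1.85 and 2.34 FPKM (-1.18 ± 0.30, adjusted p = 0.0196), and Dbt, the core of the enzyme, at 16.8, 20.3, 26.4, 21.5 and 20.6 FPKM against 14.4, 6.87 and 8.25 FPKM (-1.08 ± 0.22, adjusted p = 0.0115). The kinase was thus higher and the phosphatase lower in every DM-HFD library than in every control, as were 6.25% and 21.8% of all genes. The Bckdk call was lost without control replicate 2 or 5, without DM-HFD replicate 2 or 3, and in TPM. That of Ppm1k was lost without DM-HFD replicate 2 or 3. Both were lost once trends with length and GC were taken out. Oxct1, which starts ketone body oxidation, was at 195, 184, 246, 161 and 168 FPKM against 162, 46.3 and 103.8 FPKM (-1.03 ± 0.33, adjusted p = 0.0467), a call lost without any one control. Bdh1, of the step before, did not pass (0.42, adjusted p = 0.306).

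Of 39 genes of glucose uptake, glycolysis and glycogen, 7 fell (Pfkp, Ppp1r3a, Ugp2, Pdp1, Gbe1, Pdk1 and Pdha1) and 1 rose (Aldoa). These shares of 17.9% and 2.56% were near those of all genes (21.9% and 4.67%), with a list median of 0.00232. The insulin-responsive transporter Slc2a4 was at 22.97, 24.5, 29.4, 23.1 and 19.99 FPKM in the controls and 27.2, 19.4 and 27.99 FPKM in the DM-HFD libraries (0.04 ± 0.17, adjusted p = 0.865). Pfkp, a phosphofructokinase, was at 6.75, 8.61, 6.16, 6.06 and 9.197 FPKM against 3.703, 4.55 and 4.14 FPKM (-0.69, adjusted p = 0.0156), and Ugp2, which makes the glucose donor of glycogen, at 84.2, 82.6, 83.7, 66.8 and 65.9 FPKM against 61.8, 27.2 and 39.1 FPKM (-0.90, adjusted p = 0.0221). Aldoa, a glycolytic aldolase, was higher (323 to 445 FPKM in the controls and 461 to 692 FPKM in the DM-HFD libraries, 0.64, adjusted p = 0.0223). Of those that fell, Ppp1r3a, Ugp2 and Gbe1 act on glycogen, and Pdp1, Pdk1 and Pdha1 on the oxidation of pyruvate.

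Of 32 genes of calcium handling, 6 fell (18.8%) and 1 rose (3.12%), shares no larger than those of all genes (21.9% and 4.67%, median of the list -0.31). Phospholamban (Pln), the brake on the calcium pump SERCA2a, was at 230.1, 224, 228, 208 and 227 FPKM in the controls and 193, 68.3 and 66.8 FPKM in the DM-HFD libraries (-1.21 ± 0.31, adjusted p = 0.0198). Its target Atp2a2 was at 807, 706, 811, 641 and 653 FPKM against 771, 353 and 689 FPKM and did not pass the test (-0.33 ± 0.24, adjusted p = 0.308). In DM-HFD replicate 1 both were near the controls, and in replicate 3 Pln was far below them while Atp2a2 was within their range. Trdn, triadin, which ties the store's calcium buffer to its release channel, was at 45.3, 44.5, 53.2, 40.6 and 43.2 FPKM against 30.8, 8.95 and 13.997 FPKM (-1.46 ± 0.31, adjusted p = 0.0117). Cacna2d1, a subunit of the L-type calcium channel, was at 16.8, 16.4, 20.8, 14.3 and 14.7 FPKM against 11.7, 3.18 and 2.32 FPKM (-1.64 ± 0.37, adjusted p = 0.0143), and Gja1, connexin 43 of the gap junctions, at 34.6, 43.4, 37.6, 37.4 and 46.5 FPKM against 27.7, 12.6 and 16.7 FPKM (-1.096 ± 0.22, adjusted p = 0.01099). Asph (-1.14, adjusted p = 0.0156) and Cacnb2 fell too, and S100a1, a calcium sensor that aids the pump, rose. Ryr2, Slc8a1, Cacna1c and Casq2 did not pass. No gene of this list held without DM-HFD replicate 3.

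Of 32 sarcomere genes, 5 fell (15.6%) and 2 rose (6.25%), against 21.9% and 4.67% of all genes. Titin (Ttn), the elastic filament, was at 16.1, 18.8, 24.6, 11.1 and 11.7 FPKM in the controls and 9.92, 3.36 and 4.47 FPKM in the DM-HFD libraries (-1.39 ± 0.33, adjusted p = 0.0156), and Mylk3, the kinase of cardiac myosin light chain, at 55.5, 55.8, 58.7, 48.5 and 51.2 FPKM against 39.7, 14.7 and 27.9 FPKM (-1.05 ± 0.26, adjusted p = 0.0177). Xirp2, Nebl and Myh7b fell as well. Desmin and Cryab, the small heat shock protein αB-crystallin that protects desmin (376, 365, 436, 479 and 432 against 678, 1029 and 1072 FPKM, 1.13 ± 0.18, adjusted p = 0.00685), rose. The myosin heavy chains did not pass: Myh6 was at 934, 799, 863, 692 and 706 FPKM against 896, 368 and 842 FPKM (-0.28, adjusted p = 0.446) and Myh7 at 35.9, 36.1, 22.8, 31.2 and 31.8 FPKM against 36.3, 65.4 and 33.8 FPKM (0.46, adjusted p = 0.158). Nor did the natriuretic peptides, with Nppa at 299, 347, 301, 371 and 399.6 FPKM against 139, 556 and 304 FPKM (-0.25, adjusted p = 0.607) and Nppb at 298, 386, 24.9, 303 and 305 FPKM against 308, 149 and 305 FPKM (0.31, adjusted p = 0.782). The Nppb value of control replicate 3 was far below its group. Of 13 fetal and stress genes, Xirp2 fell (-1.39, adjusted p = 0.0178) and Serpina3n rose, 7.69% each against 21.9% and 4.67% of all genes.

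Of 33 insulin and mTOR signalling genes, 11 fell (33.3%) and 3 rose (9.09%), against 21.9% and 4.67% of all genes (median -0.36). Pik3r1, the regulatory subunit of PI3-kinase, was at 9.68, 9.799, 11.7, 9.21 and 10.3 FPKM in the controls and 6.32, 2.78 and 2.91 FPKM in the DM-HFD libraries (-1.22 ± 0.21, adjusted p = 0.00846). Replicate 1 was the nearest of the 3 to the controls. Rps6kb1, the S6 kinase, fell (-1.16, adjusted p = 0.00968), as did Igf1r, Pik3ca, Rictor, Irs1, Foxo1, Pdpk1, Rheb and Gsk3b. Raptor (Rptor), which defines the complex mTORC1, was at 4.48, 4.76, 4.402, 4.61 and 4.79 FPKM against 6.53, 9.01 and 8.78 FPKM (0.69 ± 0.13, adjusted p = 0.00942), and Eif4ebp1 and Akt1 rose with it. Once trends with length and GC were taken out, 1 of the 33 fell and 2 rose, and the median was 0.06.

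Of 26 heat shock genes, 3 rose (11.5%), all of them small heat shock proteins (Cryab, Hspb1 and Hspb8), and 6 fell (23.1%), against 4.67% and 21.9% of all genes. Those that fell were the DnaJ partners Dnaja1 (15.7, 15.6, 12.1, 16.6 and 15.8 against 11.1, 6.68 and 6.52 FPKM, -0.86 ± 0.18, adjusted p = 0.0124) and Dnajb4, the cytosolic Hsp90aa1 (-0.92, adjusted p = 0.0217), the factor Hsf2 and the mitochondrial Hspd1 and Hspa9. Whether the class of a chaperone and its direction are related was not tested. In the list of ER chaperones and targets of the stress factor ATF4, Psat1 rose and Canx (-0.78, adjusted p = 0.0164), the cystine carrier Slc7a11 (-1.14, adjusted p = 0.0107) and the kinase Eif2ak3 (-0.46, adjusted p = 0.0302) fell, out of 36. The shares of this list, 2.78% that rose and 8.33% that fell, were below those of all genes (4.67% and 21.9%). Without DM-HFD replicate 1, 13 of the 36 rose, as did 2357 of 11560 genes in all. Without replicate 2, 1 of the 36 rose and 2 fell, and without replicate 3, 0 rose and 0 fell. The median of this list in DM-HFD replicate 3 was 0.74, against -0.30 in replicate 1.

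Antioxidant enzymes rose in 6 of 27 genes (22.2%, against 4.67% of all genes) and fell in 1 (median 0.29, positive in each alternative). The count that rose was 12, 1 and 0 without DM-HFD replicates 1, 2 and 3. Sod1, the cytosolic superoxide dismutase, was at 339, 352, 369.8, 407 and 376 FPKM in the controls and 432, 608 and 552 FPKM in the DM-HFD libraries (0.51 ± 0.14, adjusted p = 0.02803). Txn2, mitochondrial thioredoxin (0.52, adjusted p = 0.0146), Prdx6, a peroxidase of oxidised lipids (0.69, adjusted p = 0.0256), Gstm1, Srxn1 and Gpx4 rose, and Gclc, which starts glutathione synthesis, fell (-0.65, adjusted p = 0.01196). Catalase and the metallothioneins Mt1 and Mt2 did not pass. Of 32 genes of autophagy, mitophagy and muscle ubiquitin ligases, 5 rose (15.6%) and 7 fell (21.9%, the share of all genes). Sqstm1, the cargo receptor p62, was at 708, 475, 622, 702 and 464 FPKM against 978, 1322 and 1315 FPKM (1.03 ± 0.19, adjusted p = 0.00935), and Map1lc3a, its binding partner on the autophagosome, at 221, 212, 231, 238 and 225 FPKM against 291, 338 and 431 FPKM (0.63 ± 0.15, adjusted p = 0.0153). The lysosomal proteases Ctsb and Ctsd rose too. Lamp2, which lets autophagosomes fuse with lysosomes, was at 23.04, 26.2, 28.8, 23.7 and 25.3 FPKM against 17.8, 11.3 and 9.85 FPKM (-0.95 ± 0.18, adjusted p = 0.00942), and the fission and fusion proteins Dnm1l (-1.297, adjusted p = 0.0132) and Opa1 fell. The ligases of muscle atrophy Trim63 and Fbxo32 did not pass the test.

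Clock genes fell in 6 of 19 (31.6%, against 21.9% of all genes) and rose in none. Nr1d2, a repressor of the clock, was at 32.2, 32.7, 34.5, 28.1 and 26.5 FPKM in the controls and 23.7, 5.79 and 10.5 FPKM in the DM-HFD libraries (-1.34 ± 0.33, adjusted p = 0.0187). Rora, the activator at the same sites, was at 4.15, 4.38, 4.35, 3.05 and 3.57 FPKM against 2.75, 0.217 and 0.611 FPKM (-1.32 ± 0.31, adjusted p = 0.0153). Per3 (-0.59, adjusted p = 0.0117), Hlf (-0.72, adjusted p = 0.01504), Clock and Arntl fell, so activators and repressors were lower together, and Per1, Per2, Nr1d1 and Dbp did not pass. The hour at which cells were collected is not given in the sources used here. Of 23 cardiac transcription factors, 4 fell (Mef2a -0.82, adjusted p = 0.0127, Klf9 -0.9997, adjusted p = 0.015004, Myocd -0.57, adjusted p = 0.0212 and Tbx20 -0.86, adjusted p = 0.0364) and Srf rose, while Gata4, Nkx2-5, Hand2 and Tbx5 did not pass. The shares of 17.4% and 4.35% were no larger than those of all genes (21.9% and 4.67%).

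Of 34 genes for signalling by nitric oxide, cGMP and cAMP, 6 fell (17.6%) and 1 rose (2.94%), shares no larger than those of all genes. Chrm2 and Gnai3 (13.6, 13.6, 8.26, 13.7 and 13.2 against 6.38, 5.39 and 3.84 FPKM, -1.12 ± 0.20, adjusted p = 0.00868) are a receptor and a G protein of the same inhibitory branch, and Pde1c (-0.81, adjusted p = 0.00911) degrades cGMP and cAMP. Prkg1 is a cGMP-dependent kinase, and Prkar2a (-0.77, adjusted p = 0.0183) and Pakap act on the cAMP-dependent kinase. The stimulatory G protein Gnas rose. Endothelial nitric oxide synthase (Nos3), the beta-adrenergic receptors and the phosphodiesterases Pde2a and Pde3a did not pass. In the family of peptidases around DPP-4, Dpp8 was at 7.46, 8.33, 8.71, 7.15 and 7.63 FPKM in the controls and 6.22, 3.35 and 3.33 FPKM in the DM-HFD libraries (-0.78 ± 0.18, adjusted p = 0.0154). Pepd, which cleaves dipeptides ending in proline, was at 3.97, 4.16, 5.28, 4.77 and 4.81 FPKM against 5.28, 8.42 and 8.66 FPKM (0.57 ± 0.17, adjusted p = 0.0335). The other 5 of the 7 listed, Dpp7, Dpp9, Prep, Prcp and Xpnpep1, did not pass. The shares that fell and rose were 14.3% each, against 21.9% and 4.67% of all genes.

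Matrix and inflammatory genes were scattered between the DM-HFD libraries. Of 45 matrix and TGF-beta genes, 5 fell (11.1%, against 21.9% of all genes) and none rose. Tgfbr1, a TGF-beta receptor, was at 6.16, 5.97, 4.14, 4.52 and 5.02 FPKM in the controls and 2.21, 1.22 and 0.8302 FPKM in the DM-HFD libraries (-1.38 ± 0.20, adjusted p = 0.00533), and Postn, a matrix protein of activated fibroblasts, at 1.504, 1.92, 1.43, 1.36 and 1.25 FPKM against 0.167, 0.242 and 0.3799 FPKM (-0.98 ± 0.12, adjusted p = 0.00419). Tgfbr1, Postn and Sparcl1 held without each library. Lama2 also fell (-0.72, adjusted p = 0.0129). Among 18 fibroblast markers, 1 fell (Postn) and 1 rose (Fbln1, 0.89, adjusted p = 0.0162), 5.56% each against 21.9% and 4.67% of all genes. The list medians of matrix genes were -0.96 in DM-HFD replicate 1, 0.46 in replicate 2 and -0.44 in replicate 3.

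Of 24 genes of inflammation and the acute phase, 4 rose (16.7%) and 3 fell (12.5%), against 4.67% and 21.9% of all genes. C4b, of the complement system, was at 0.307, 0.206, 0.674, 0.197 and 0.175 FPKM in the controls and 0.596, 11.4 and 2.71 FPKM in the DM-HFD libraries (1.69 ± 0.51, adjusted p = 0.0353), and haptoglobin (Hp) at 0, 0.335, 0.115, 0.244 and 0.176 FPKM against 0.348, 4.86 and 1.39 FPKM (1.19, adjusted p = 0.0395). Pglyrp2, which cleaves bacterial cell wall, was at 0.3201, 0.0964, 0.299, 0.695 and 0.837 FPKM against 1.02, 3.45 and 1.68 FPKM (1.02 ± 0.25, adjusted p = 0.018996). All 3 were low in absolute level and highest in DM-HFD replicate 2. The chemokine Cxcl12 fell (-1.25, adjusted p = 0.0352), with a value of 15.2 FPKM in DM-HFD replicate 2 that lay inside the control range of 10.998 to 20.7 FPKM. Of 15 macrophage and leukocyte markers, 4 rose (26.7%: Cd68, Csf1r, Tyrobp and Cd74) and none fell, against 4.67% and 21.9% of all genes. Csf1r, the receptor that sustains macrophages, was at 1.88, 1.72, 1.42, 1.57 and 1.305 FPKM against 1.65, 6.18 and 4.72 FPKM (0.89, adjusted p = 0.0376) and Tyrobp at 3.78, 4.19, 4.76, 2.82 and 3.02 FPKM against 3.82, 17.6 and 11.2 FPKM (1.15, adjusted p = 0.0422). In DM-HFD replicate 1 Csf1r, Tyrobp and Cd74 were within the control range. Without that library, 12 of the 15 rose, without replicate 2, 1 did, and without replicate 3, 0 did. None of the 5 red cell or 5 mesothelial markers passed the test: Hbb-bt was at 0.552, 0.725, 0.262, 1.02 and 1.23 FPKM against 0.574, 57.8 and 2.97 FPKM (2.06, adjusted p = 0.113) and Msln at 1.997, 1.31, 4.01, 3.33 and 2.93 FPKM against 2.19, 16.4 and 13.04 FPKM (1.36, adjusted p = 0.0659).

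Few ribosomal protein genes passed the test. Of 81 cytosolic ribosomal proteins, 77 had a positive log2 fold change, the median was 0.40, and 4 passed the test (4.94%, near the 4.67% of all genes), among them Rps10, Rpl28 and Rps14. Their median difference was 0.04 in DM-HFD replicate 1, 0.79 in replicate 2 and 0.35 in replicate 3. The 4 calls were lost without any one control. The count was 41 with median-of-ratios scaling, and 52, 0 and 0 without DM-HFD replicates 1, 2 and 3. Of 78 mitochondrial ribosomal proteins, 5 rose (6.41%) and 2 fell (2.56%), against 4.67% and 21.9% of all genes. Among the calls were Mrpl58 (0.64, adjusted p = 0.0129), Mrpl28 (0.71, adjusted p = 0.0177) and Mrpl1 (-0.79, adjusted p = 0.0189). Of 20 immediate early genes none passed the test; Myc was at 26.02, 23.9, 15.3, 35.1 and 23.9 FPKM against 32.2, 35.4 and 40.7 FPKM (0.56, adjusted p = 0.0875) and Klf6 at 45.3, 45.3, 20.5, 52.8 and 53.1 FPKM against 32.7, 16.7 and 19.9 FPKM (-0.87, adjusted p = 0.0698). Of 13 cell cycle genes 2 fell (15.4%, against 21.9% of all genes). They were the inhibitor Cdkn1b, at 7.33, 5.72, 7.25, 6.64 and 6.21 FPKM against 3.29, 3.09 and 3.46 FPKM (-0.83 ± 0.12, adjusted p = 0.00629, held without each library), and Ccnd2 (-0.76, adjusted p = 0.0187). Of 19 genes of iron and NAD metabolism, Cd38, which consumes NAD (-1.01, adjusted p = 0.00758), Nampt, which remakes it (-1.12, adjusted p = 0.0246), Sirt1 and Ireb2 (-1.15, adjusted p = 0.00842) fell and Fth1 rose. These shares of 21.1% and 5.26% were close to those of all genes (21.9% and 4.67%). The Y-linked genes, looked at after their values were seen, were present in all 16 libraries and fell: Eif2s3y was at 15.4, 14.7, 13.9, 13.8 and 13.6 FPKM against 10.2, 3.13 and 3.32 FPKM (-1.38, adjusted p = 0.0117) and Ddx3y at 25.9, 21.2, 16.9, 18.04 and 23.97 FPKM against 11.3, 3.53 and 5.07 FPKM (-1.66, adjusted p = 0.00846).

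The same comparison in the vehicle libraries uses other libraries, but the labels do not say whether the exposures share animals or isolations. Deviations of same-numbered control libraries of the 2 exposures from their group means correlated at 0.52, 0.29, 0.40, -0.33 and 0.38 across genes, and those of DM-HFD libraries at -0.15, -0.60 and 0.21, so the comparison is given as a description and not as a separate experiment. Among 11283 genes tested with both exposures, 2286 were called in the same direction and 1 in the opposite one, which is 75.7% of the 3018 linagliptin calls and 64.7% of the 3535 vehicle calls in that set. In the vehicle libraries 331 of 11359 genes (2.91%) rose and 3220 (28.3%) fell, and the groups did not overlap for 385 that were higher (3.39%) and 3403 that were lower (30%). The log2 fold changes correlated across genes (Pearson's r = 0.85, Spearman's rho = 0.85), and 79.2% had the same sign. Among the calls, 2178 genes fell in both and 309 fell with linagliptin alone, and 108 rose in both and 422 were called higher with linagliptin alone. Of the 531 rises with linagliptin in that set, 467 had a positive value with vehicle. Ech1 rose in both (0.95, adjusted p = 0.00055 with vehicle), and Rgs5 (-1.88, adjusted p = 0.00055), Chrm2 (-2.06, adjusted p = 0.00055) and Iigp1 (-2.15, adjusted p = 0.00064) fell in both. Psat1 (0.06, adjusted p = 0.8501), Ninj1 (0.23, adjusted p = 0.541) and Hspb1 (0.36, adjusted p = 0.146) did not pass with vehicle.

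**Figure D5:**
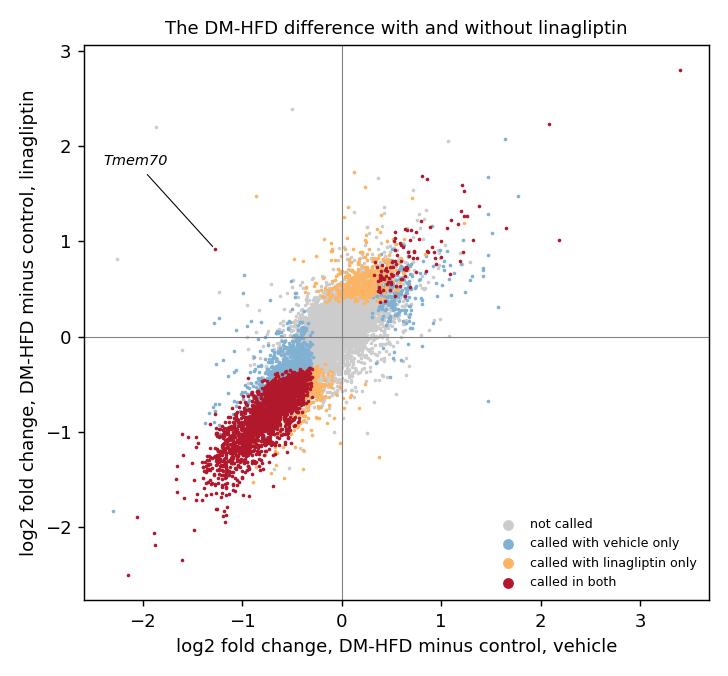
Log2 fold change between DM-HFD and control cells with vehicle (x axis) and with linagliptin (y axis), 1 point per gene, coloured by whether the gene was called in neither, one or both comparisons. Most points called in both lie in the lower left, and Tmem70 is the single gene called in opposite directions (0.92 with linagliptin and -1.27 with vehicle).

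Whether the DM-HFD difference depended on linagliptin was tested as an interaction over all 16 libraries. No gene of 11631 passed in limma at an adjusted p under 0.05, 532 (4.57%) had an unadjusted p under 0.05, and the lowest adjusted p was 0.891. Calls made with one exposure only are therefore not shown to depend on the drug. The 5 genes with the lowest p were Gcdh, Tmem70, Myh7, Mafa and Hist1h2bl. Tmem70, an assembly factor of the ATP synthase, was at 18.7, 22.6, 25.4, 19.2 and 21.5 FPKM in the controls and 53.7, 32.9 and 39.6 FPKM in the DM-HFD libraries with linagliptin (0.92 ± 0.18, adjusted p = 0.00942). With vehicle its means were 44.2 FPKM in the controls and 15.9 FPKM in the DM-HFD libraries (-1.27, adjusted p = 0.0285). Myh7, the slow myosin heavy chain, had a log2 fold change of 0.46 with linagliptin and with vehicle one of -0.99 (adjusted p = 0.00452). Gcdh, of lysine breakdown, had 0.15 with linagliptin and, with vehicle, -0.81 (adjusted p = 0.00174). The interaction of each had an adjusted p of 0.891. Without DM-HFD linagliptin replicate 1, 18 genes passed, among them Psat1 (interaction 1.70, adjusted p = 0.0371).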

How the data were processed

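RNA sequencing was of poly(A)-selected RNA from primary cultured cardiomyocytes, with a stranded kit and 150 bp paired-end reads. Per the submitters' processing notes and the study's methods, the authors checked reads with FastQC 0.11.7, trimmed adaptors with cutadapt, aligned to GRCm38 with HISAT2 2.1.0 and estimated abundance with StringTie 1.3.3. The values the authors deposited are gene and transcript FPKM from Ballgown, for 11631 genes and 23055 transcripts, all protein coding. No counts were used, so the read total of each library is unknown beyond the sequencing depth that the study's methods state. FPKM of short or low transcripts therefore have an unknown counting error. Ratios of FPKM do not correct for a different composition of RNA between libraries.

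Libraries were grouped by their labels. Genes whose mean reached 0.5 FPKM in either group were tested on log2(FPKM + 1) with limma 3.58.1 (empirical Bayes with a trend) in R 4.3.3, Benjamini-Hochberg adjustment and a threshold of 0.05. The interaction of mouse group and exposure was fitted over 16 libraries. Isoform shares were taken of transcripts in genes with a summed FPKM of at least 1 in every library and a mean share of at least 10%, and tested with limma on the arcsine square root scale. Single values were tested with the two-sided exact permutation test over 56 splits. The deposited tables hold no column of other series (0). Transcript length and GC content were taken from GENCODE M21, which held 98.6% of the genes. Scripts were tested on simulated data.

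The genes named are the 10 largest rises and 10 largest falls among calls whose mean reached 5 FPKM in the higher group and no overlap, up to 4 called members of each gene list with the lowest adjusted p (the 2 with the lowest p where none was called), 19 genes named always, the 10 isoform genes with the largest difference and the 5 genes with the lowest interaction p. A few genes of these sets are not reported here. The shares of Ank3, Ngly1 and Bud13 lie outside the 10 and were added after their values were seen. Further members that passed are named to complete a count, and a few that did not pass were picked as familiar genes after their values were seen. The libraries compared, the lists and the rule were chosen with earlier results of these data known. Same-numbered control and DM-HFD libraries did not deviate together, and across the exposures some same-numbered libraries did and some did not, so no block was used. The alternatives were the pseudocount, the minimum, 4 scalings, removal of length and GC trends, other models, transcript sums, a replicate block and each library left out.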

Additional observations from a re-analysis of the deposited data

Results flagged for a closer look

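Of 164 named genes and single values, 15 had 1 control library far from the other 4 (gap over range above 0.71, Dixon's limit for 5 values), where chance flags about 1 in 20. In 14 of the 15 this was control linagliptin replicate 3. Its values were highest, against the range of the other 4 controls, for Pdk4 (324 against 48.0 to 61.0 FPKM), Ucp3 (16.5 against 1.77 to 2.58), Acaa2 (399 against 288 to 311), Dld (169 against 129 to 135), Mdh2 (315 against 221 to 245), Cox4i1 (457 against 351 to 378), Ndufa7 (79.5 against 69.3 to 72.0), Ninj1 (23.3 against 15.0 to 17.1) and C4b (0.674 against 0.175 to 0.307). They were lowest for Nppb (24.9 against 298 to 386), Klf6 (20.5 against 45.3 to 53.1), Gnai3 (8.26 against 13.2 to 13.7), Dnaja1 (12.1 against 15.6 to 16.6) and Erg (3.84 against 7.28 to 8.34). For Pln the far library was control replicate 4 (208 against 224 to 230 FPKM). Groups of 3, such as the DM-HFD libraries, cannot be judged in this way.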

How the results depend on the processing

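The 3069 calls stayed within 1.5 times (2360 to 4211) with another pseudocount, no minimum, the 4 scalings, no variance trend, all 16 libraries in one fit or transcript sums, and the model without moderation gave 1849. Taking out the trends with length and GC gave 610 calls, of which 381 were shared with the main calls and 7 were in the opposite direction, and 901 in place of 2516 genes by the fold and p thresholds. The model of Ballgown gave 1 (2927 genes at an unadjusted p under 0.05). Median log2 fold changes over all genes were -0.19 in TPM, -0.15 rescaled without mitochondrial genes, 0.02 with median-of-ratios scaling, 0.06 with quantile scaling and 0.10 in the model of Ballgown, so list medians are best read against those values. The replicate block gave 0 calls (3398 genes at an unadjusted p under 0.05), 2592 genes by the fold and p thresholds, 0 genes with a changed isoform share and 0 interactions. Deviations of same-numbered control and DM-HFD libraries correlated at 0.06, 0.02 and -0.06, 0 of the 3 DM-HFD libraries correlated best with their own number, and a number is thus no pair between the groups. Between the exposures, same-numbered control libraries correlated at -0.33 to 0.52 and DM-HFD libraries at -0.60 to 0.21. The interaction with mouse group and replicate number as a block left every adjusted p at 0.199 or above, with 849 genes below 0.05 before adjustment. Without each library in turn, calls ran from 106 to 5796, genes by the fold and p thresholds from 1914 to 4043, interaction calls from 0 to 18, isoform genes from 9 to 86 and the difference in mitochondrial share from -2.74 to 4.75 percentage points. Isoform genes were 5 with plain shares and 9 with a summed FPKM of at least 5. Of 131 called named genes, 15 kept their call without DM-HFD replicate 3, 33 after taking out those trends and 109 in TPM. The direction turned in 9 instances, none at an adjusted p under 0.05: without those trends Etfb (-0.026), Pde1c (0.031), Tbx20 (0.14) and Hist1h2bl (-0.12), from transcript sums Mrpl38 (-0.045), Gbp9 (0.050) and Gbp4 (0.43), and in the model of Ballgown Mcam (0.048) and Cxcl12 (0.68). The causes were not tested.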
